A study of Mus musculus with 2 samples.

Results

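Transcripts of 56 translation initiation and elongation factor genes were compared between 1 library of T helper 17 (Th17) cells and 1 library of group 3 innate lymphoid cells (ILC3s) from the mouse small intestine. The genes are the rows of the table, of 17024 with a usable name, whose symbols start with Eif1 to Eif6 or with Eef1 or Eef2. The kinases of the Eif2ak family and the Y-linked Eif2s3y were left out by that rule. Among the 56 are genes that regulate translation factors and are not factors themselves, such as the eIF4E-binding proteins and the kinase of eEF2. Th17 cells were GFP-positive T cells of IL17A_IRES_GFP knock-in mice. ILC3s were GFP-positive cells of IL23R_GFP knock-in mice. Both lines were C57BL/6, aged 6 to 8 weeks, and no treatment is given in the labels. Mouse line, reporter and cell type differ together, and the labels do not say how many animals each library holds.

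Translation of an mRNA begins when eIF2 brings the initiator tRNA to the small ribosomal subunit, eIF1, eIF1A, eIF3 and eIF5 help it find the start codon, and the eIF4F complex ties the cap of the mRNA to that subunit. eEF1A then delivers aminoacyl-tRNAs and eEF2 moves the ribosome along. The pace of the process is set at a few control points: eIF2 and its exchange factor eIF2B, the cap-binding protein eIF4E with its inhibitors, and eEF2 with its inhibiting kinase. Lymphocytes raise protein synthesis when they are activated and divide.

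The libraries held 17555055 (Th17) and 22509405 (ILC3) reads over the named genes. Values are the authors' normalized counts, which are reads divided by a size factor of each library, unless a sentence says per kb of exon. With 1 library per group no difference has a replicate check. Where 2 values follow a gene, Th17 comes first. Bracketed ranges are exact 95% intervals of the fold that count sampling of reads alone, so they speak of a pair of libraries. The labelled identities were visible in defining genes. Cd3d, Cd3e, Cd3g and Cd4 were all higher in Th17, where they summed to 47477 normalized counts against 3304 in ILC3, and Kit, Il7r, Ncr1 and Id2 were all higher in ILC3, at 65351 against 21863. Other cell types and states also moved between the libraries. All 9 stroma and endothelium markers (summing to 2396 in Th17 and 11528 in ILC3, with Cdh5 and Kdr listed at 0 in Th17), all 5 measured B and plasma cell markers (895 and 10902) and all 6 epithelium markers (162 and 954) were higher in ILC3. Of 7 macrophage and dendritic cell markers 4 were higher in ILC3 and 3 in Th17 (639 in Th17 and 975 in ILC3). All 10 proliferation genes were higher in Th17 (33900 and 6687), and all 10 immediate early genes were higher in ILC3 (117017 in Th17 and 733628 in ILC3). The part of these cells and states in the differences below was not tested. In bulk samples, fewer cells of a type and less RNA per cell cannot be told apart.

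Most factors were modestly more abundant in the Th17 library, and 1 gene departed sharply the other way. Counting differences of any size, 47 of the 56 genes were higher in Th17 and 9 in ILC3. Of the 54 that reached 100 normalized counts in either library, 87.0% were higher in Th17, against 54.9% of all 10431 genes that reached that level. The median log2 ratio of Th17 over ILC3, taken with a pseudocount of 1, was 0.50 over 54 genes at a mean of at least 10, which is 1.41-fold. The same median was 0.02 over all genes at that mean and 0.17 over all genes at a mean of at least 1000. With a minimum of 100 in whichever library was higher, 10 factors were 2-fold or more higher in Th17 and 1 in ILC3. The background for these counts was 16.2% and 16.0% of all genes that reached 100, so the 10 are a share near the background and the 1 is below it. At 4-fold or more none was higher in Th17 and only Eef2k was higher in ILC3, against backgrounds of 6.40% and 8.39%. The shift is therefore broad and small: 26 of the 54 lay between 1.3-fold and 2-fold higher in Th17, as did 20.5% of all genes. The interval excluded equal values for 43 members higher in Th17 and 6 higher in ILC3, against 47.6% and 38.2% of all genes. Together the 56 genes held 2.45% of the Th17 reads and 1.96% of the ILC3 reads. Much of that gap lay in the eEF1 genes (0.93% and 0.702% of reads) and in Eef2 with its kinase (0.441% and 0.291%).

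**Figure D1:**
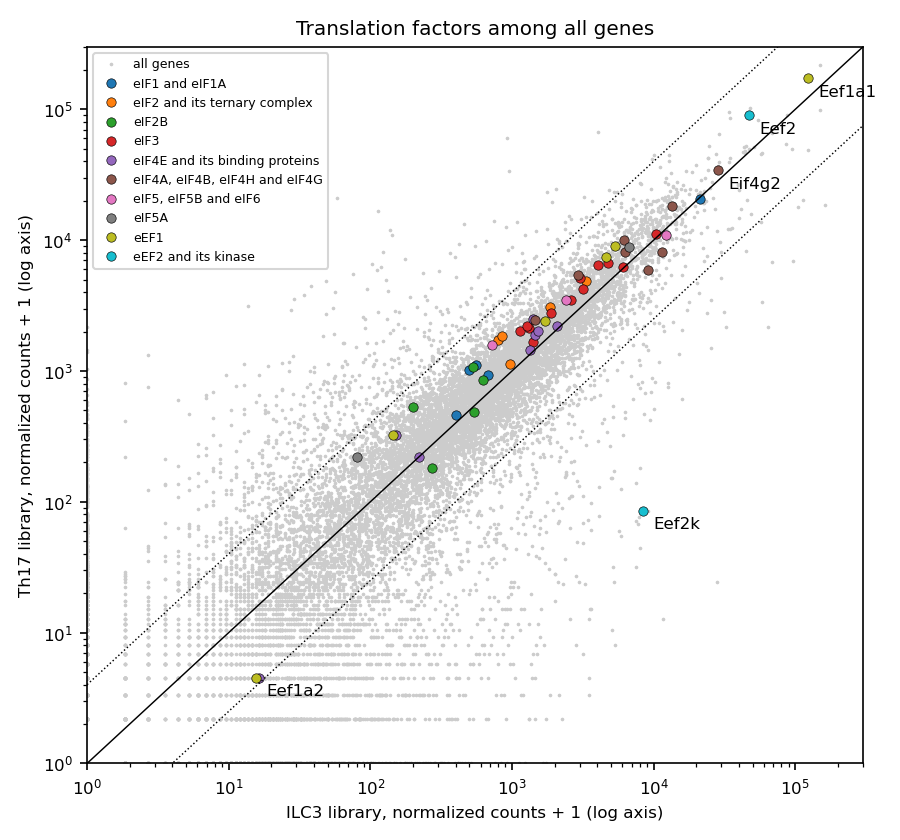
Normalized counts plus 1 of every named gene in the ILC3 library (horizontal, log axis) and the Th17 library (vertical, log axis), with translation factors coloured by role, the solid line at equal values and dotted lines at 4-fold. Most factors lie just above the line of equality, and Eef2k lies far below it at 8457 in ILC3 and 84.7 in Th17.

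This direction depends on what is held equal. The 159 genes of mitochondrial ribosomal proteins, the proteasome and respiratory complex I had a median of 0.44 and the 82 genes of cytosolic ribosomal proteins a median of 0.71, so other housekeeping families were higher in Th17 too. Relative to the first family the median of the translation factors was 0.06, with 32 higher in Th17 and 24 in ILC3. Relative to ribosomal proteins it turned to -0.21, with 19 higher in Th17 and 37 in ILC3. The factors thus stood with these families and below the ribosomal proteins in their Th17 excess. Eef2k was the only gene with a 2-fold call in ILC3 under the authors' scaling, and it kept that call relative to the first family and to ribosomal proteins. Relative to each of these, Eif2b3 and Eif4g3 also reached 2-fold in ILC3, and Eif4a2 did so relative to ribosomal proteins. No gene kept a 2-fold call in Th17 relative to ribosomal proteins.

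**Figure D2:**
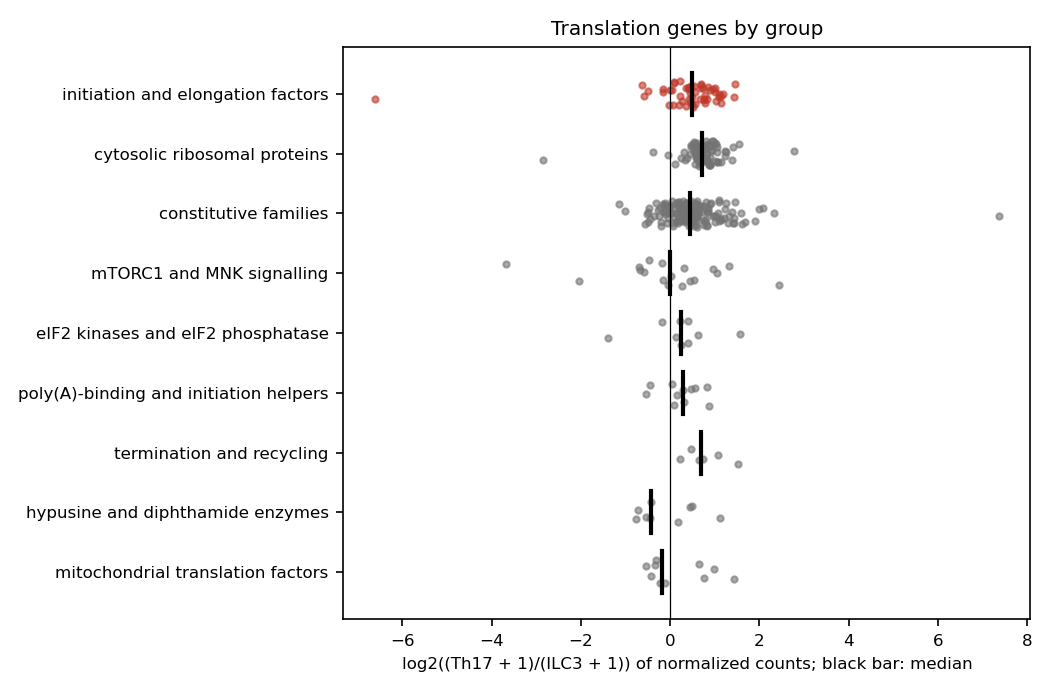
log2 ratio of Th17 over ILC3 (normalized counts plus 1) for each gene at a mean of at least 10 in the translation factors and in comparison groups, with a black bar at each median. The factors centre at 0.50 with Eef2k as the lone point at -6.63, between the constitutive families (0.44) and the cytosolic ribosomal proteins (0.71).

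The eIF2 group, which loads the initiator tRNA, was higher in Th17 for all 5 members under the authors' scaling, though Eif2a lay lower relative to the constitutive families and Eif2a and Eif2s3x relative to ribosomal proteins. Eif2s1, encoding the alpha subunit whose phosphorylation lowers initiation in the integrated stress response, had 1856 and 847 normalized counts, a 2.19-fold difference (2.02 to 2.37). Eif2s2, the beta subunit gene, had 3082 and 1853 (1.66-fold, 1.57 to 1.76), and Eif2s3x, the X-linked gene of the gamma subunit, had 4843 and 3314 (1.46-fold, 1.40 to 1.53). For Eif2s2 and Eif2s3x, 39.0% and 37.0% of the longest transcript matched another gene at 97% identity or more. The 3 subunits of 1 complex therefore differed by unequal amounts, and the alpha subunit by the most. Eif2d, encoding a factor that can place tRNA without eIF2, had 1714 and 798.5 (2.15-fold, 1.98 to 2.33). Eif2a, a separate initiation factor in spite of its name, had 1123 and 969 (1.16-fold, 1.06 to 1.26).

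eIF2B recharges eIF2 with GTP and is the complex that phosphorylated eIF2 blocks. Its 5 subunit genes did not move together. Eif2b1, the alpha subunit gene, had 532 and 198 (2.68-fold, 2.29 to 3.16). Eif2b5, the gene of the catalytic epsilon subunit, had 1075 and 532 (2.02-fold, 1.82 to 2.24). Eif2b2, the beta subunit gene, had 850.2 and 622 (1.37-fold, 1.23 to 1.52). In the other direction Eif2b3, the gamma subunit gene, had 179 and 269.6 (an ILC3 excess of 1.51-fold, 1.24 to 1.84). Eif2b4, the delta subunit gene, had 483 and 540.02, and its interval of the ILC3 excess held equal values (0.985 to 1.27). Relative to ribosomal proteins Eif2b2 also turned toward ILC3 (log2 ratio of -0.26). The epsilon subunit works as a pair with gamma, and the genes of this pair lay on opposite sides. Per kb of exon, the level of Eif2b3 was the lowest of the 5 in both libraries, at 27.4 in Th17 and 41.3 in ILC3, against medians of 206 and 205 over the 5 genes.

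Among the small factors that open the subunit for scanning, Eif1, which guards start codon choice, was nearly equal at 20790 and 21296 (1.02-fold toward ILC3, 1.00 to 1.04). Its relative Eif1b had 459 and 399 (1.15-fold higher in Th17, 1.00 to 1.32). Eif1a and Eif1ax, which both encode forms of eIF1A, had 1117 and 1010.1 in Th17 against 552 and 500.05 in ILC3. Each was 2.02-fold higher in Th17, with intervals of 1.83 to 2.24 and 1.82 to 2.25, a wider gap than that of either eIF1 gene. Eif1ad, encoding a protein with an eIF1A-like domain, had 931 and 679 (1.37-fold, 1.24 to 1.52).

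eIF3, the largest initiation factor, was higher in Th17 for all 12 measured subunit genes, none by 2-fold (median log2 ratio 0.53, range 0.04 to 0.83, with the median at -0.18 relative to ribosomal proteins). The interval excluded equal values for 11 of them. The largest differences were for Eif3i, with 2026 and 1143 (1.77-fold, 1.65 to 1.91), and Eif3m, with 2200.1 and 1272 (1.73-fold, 1.61 to 1.85). Eif3b, a scaffold subunit gene, had 5110.4 and 3029 (1.69-fold, 1.61 to 1.76). By contrast the genes of the other scaffold subunits were nearly equal: Eif3a had 11142 and 10477 (1.06-fold, 1.04 to 1.09), and Eif3c had 6200.5 and 6035 (1.03-fold, 0.991 to 1.06). Eif3e had 4253 and 3170.4 (1.34-fold, 1.28 to 1.40). The remaining 6, Eif3d, Eif3f, Eif3g, Eif3h, Eif3k and Eif3l, lay between Eif3g (1.17-fold, 1.09 to 1.26) and Eif3k (1.62-fold, 1.51 to 1.74). For Eif3m 87.7% of the longest transcript matched another gene, and an antisense gene overlaps 43.3% of the Eif3d exon length, so reads of both are uncertain. Per kb of exon, subunit levels spanned 7.38-fold in Th17 and 8.20-fold in ILC3, from Eif3i (547 and 309) to Eif3h (4039 and 2531). The lowest and the highest gene were thus the same in both libraries by this measure. The span and the lowest gene depend on the length used. All exons of Eif3i cover 3.702 kb against 1123 bases in its longest coding transcript, and those of Eif3h cover 1.612 kb against 1295 bases.

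**Figure D3:**
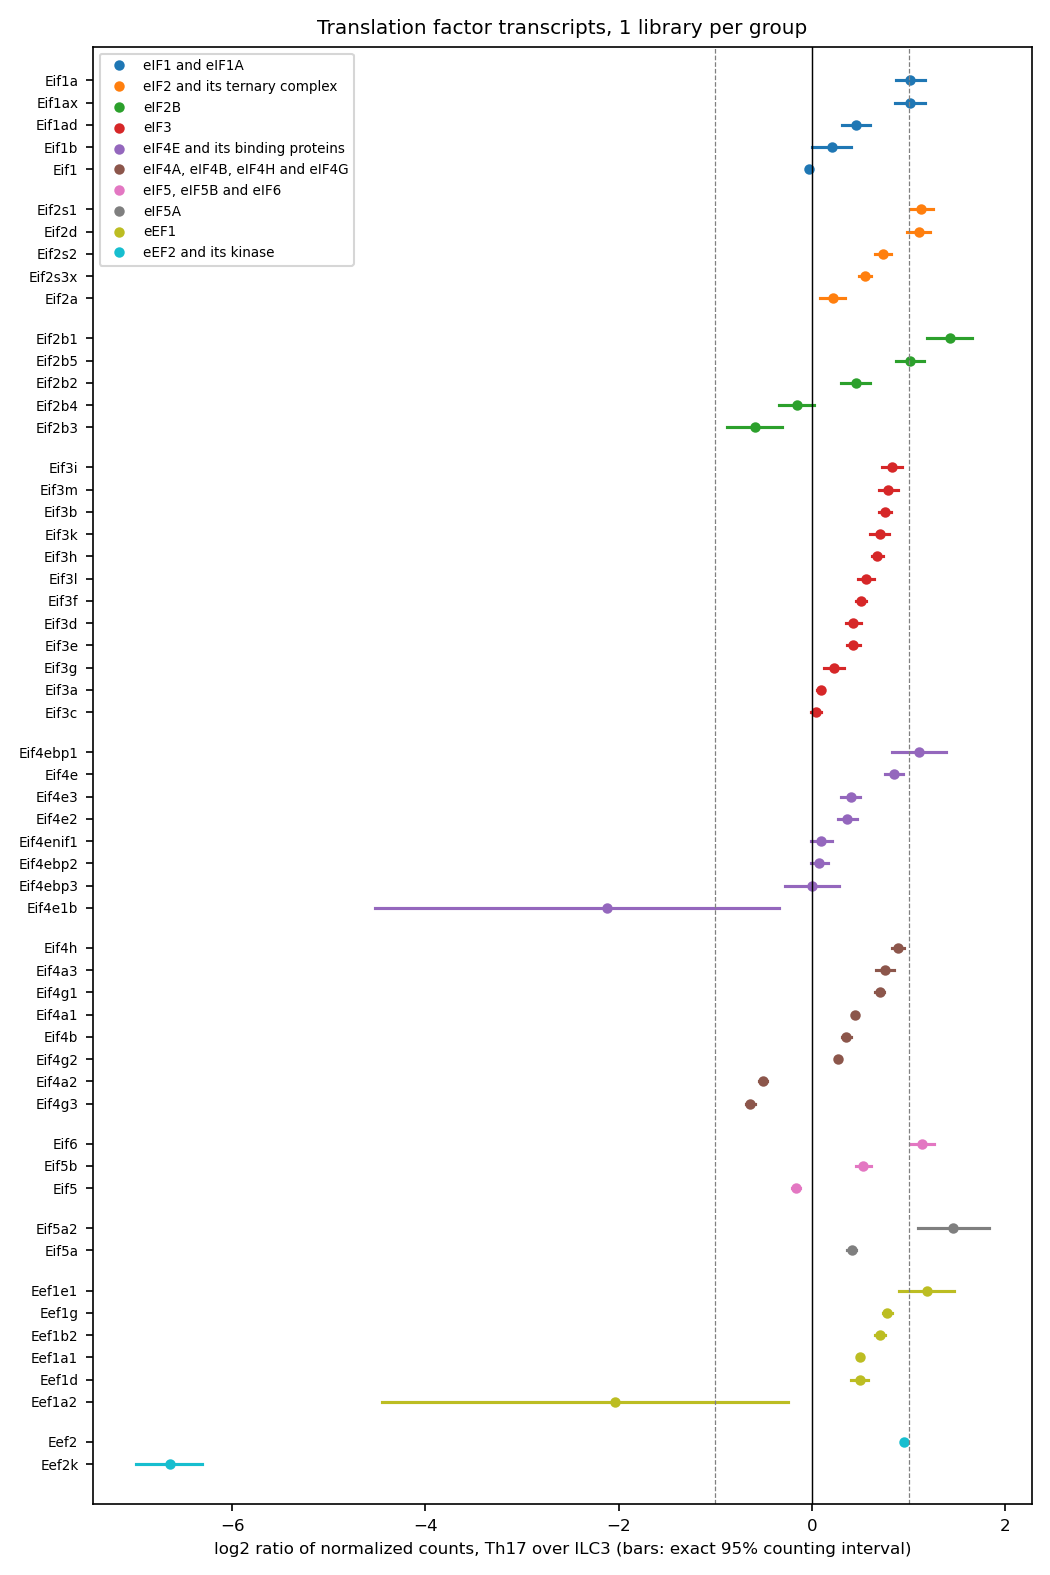
log2 ratio of normalized counts, Th17 over ILC3, for the 56 translation factor genes grouped by role (points), with exact 95% counting intervals (bars) and dashed lines at 2-fold. Points right of 0 are higher in Th17; Eef2k stands at the far left, and the wide bars belong to Eif4e1b and Eef1a2, which had few reads.

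eIF4F holds the cap-binding protein eIF4E, the helicase eIF4A and the scaffold eIF4G. Eif4e had 2518 and 1402 normalized counts (1.80-fold, 1.68 to 1.92). Its relatives Eif4e2 and Eif4e3, whose products also bind caps, had 1868 and 2019 for Th17, with 1453 and 1532 for ILC3 (1.29-fold, 1.20 to 1.38, and 1.32-fold, 1.23 to 1.41). Relative to the constitutive families their log2 ratios were -0.079 and -0.044, and relative to ribosomal proteins -0.35 and -0.31. Eif4e1b, a relative known from oocytes, had 3 reads in Th17 and 18 in ILC3. It was 4.34-fold higher in ILC3 with an interval of 1.27 to 22.997, and it did not reach 100 in either library.

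The inhibitors that keep eIF4E from eIF4G, and that mTORC1 switches off by phosphorylation, differed in pattern. Eif4ebp1 had 321 and 150 (2.14-fold, 1.77 to 2.61). Eif4ebp2 had 2204 and 2094 (1.05-fold, 0.991 to 1.118), and Eif4ebp3 had 218.7 and 218.6. A gene on the same strand overlaps 67.3% of the Eif4ebp3 exon length. Only the first thus differed beyond counting error, and it was the less abundant beside Eif4ebp2 in both libraries: per kb of exon Eif4ebp1 stood at 0.384 of Eif4ebp2 in Th17 (0.337 to 0.436) and at 0.188 in ILC3 (0.161 to 0.219). Set against their target per kb, Eif4ebp2 was at 0.909 of Eif4e in Th17 (0.854 to 0.968) and at 1.55 in ILC3 (1.46 to 1.65). Eif4ebp1 was at 0.349 of Eif4e in Th17 (0.306 to 0.396) and at 0.292 in ILC3 (0.249 to 0.341), with intervals that overlap. The size of each such ratio depends on the lengths used, which the brackets do not cover. All exons of Eif4e cover 6.008 kb, and its longest coding transcript has 4991 bases. Eif4enif1, encoding an eIF4E carrier linked to mRNA repression, had 1436 and 1346 (1.07-fold, 0.989 to 1.15).

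Paralogues of the helicase and of the scaffold went in opposite directions under the authors' scaling, while relative to ribosomal proteins all 4 lay toward ILC3 (log2 ratios of -0.27 for Eif4a1, -1.22 for Eif4a2, -0.013 for Eif4g1 and -1.35 for Eif4g3). Eif4a1, the main helicase gene, had 18406 and 13516 (1.36-fold higher in Th17, 1.33 to 1.39), while Eif4a2 had 8056 and 11421 (1.42-fold higher in ILC3, 1.38 to 1.46). Eif4g1 had 10107 and 6225 (1.62-fold higher in Th17, 1.57 to 1.68), while Eif4g3 had 5884 and 9158 (1.56-fold higher in ILC3, 1.505 to 1.61). Ratios within a library do not depend on the scaling between libraries. Per kb of exon Eif4a2 was at 0.355 of Eif4a1 in Th17 (0.345 to 0.366) and at 0.686 in ILC3 (0.670 to 0.702), a 1.93-fold difference. Eif4g3 was at 0.384 of Eif4g1 in Th17 (0.371 to 0.398) and at 0.971 in ILC3 (0.942 to 1.00), a 2.53-fold difference. These ratios were chosen after the values were seen. Small nucleolar RNA genes overlap exons of both Eif4a1 and Eif4a2, and 68.7% of the Eif4a1 transcript also matches a pseudogene, so their reads are less certain than those of the scaffold genes.

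The remaining genes of this arm were higher in Th17 under the authors' scaling, but Eif4g2 and Eif4b turned toward ILC3 relative to the constitutive families (log2 ratios of -0.18 and -0.087) and relative to ribosomal proteins (-0.45 and -0.36). Eif4g2, encoding a scaffold that does not bind eIF4E, had 34223 and 28481 (1.20-fold, 1.18 to 1.22). Eif4h and Eif4b, encoding helpers of the helicase, had 5390.3 and 8068 for Th17, with 2914 and 6307 for ILC3 (1.85-fold, 1.77 to 1.93, and 1.28-fold, 1.24 to 1.32). Eif4a3, whose product sits in the exon junction complex and not in eIF4F, had 2442 and 1446 (1.69-fold, 1.58 to 1.80).

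**Figure D4:**
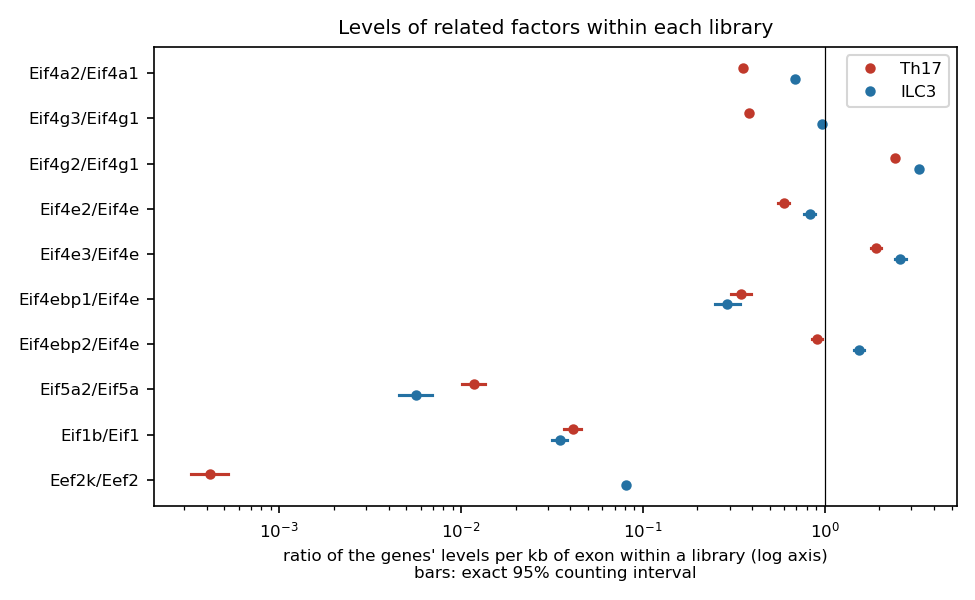
Ratio of the levels of related factors, both per kb of exon, within the Th17 library (red) and within the ILC3 library (blue) on a log axis, with exact 95% counting intervals. Eif4a2 and Eif4g3 stand higher against Eif4a1 and Eif4g1 in ILC3 (0.686 and 0.971) than in Th17 (0.355 and 0.384), and Eef2k against Eef2 shows the widest gap.

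Factors of subunit joining and of ribosome assembly divided. Eif6, which keeps free large subunits apart and takes part in their assembly, had 1579 and 718 (2.20-fold, 2.02 to 2.401). Eif5b, which joins the subunits, had 3459 and 2397 (1.44-fold, 1.37 to 1.52). Eif5, which makes eIF2 hydrolyse its GTP, had 10897 and 12242 and was 1.123-fold higher in ILC3 (1.09 to 1.15). Eif5a, the hypusine-bearing factor that helps ribosomes through difficult peptides, had 8845 and 6654 (1.33-fold higher in Th17, 1.29 to 1.37). Eif5a2, the paralogue of Eif5a, was low, at 219.9 and 79.9, with the largest fold of all members toward Th17 (2.75-fold, 2.14 to 3.56). Within each library Eif5a2 remained a small part, at 0.0118 of Eif5a per kb of exon in Th17 (0.0101 to 0.0136) and 0.00568 in ILC3 (0.00459 to 0.00696).

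eEF1 brings tRNAs to the elongating ribosome. Eef1a1, which delivers aminoacyl-tRNA, had 172655 and 122620 normalized counts (1.41-fold, 1.40 to 1.42). Per kb of exon its level was 69256 in Th17 and 49186 in ILC3, the highest of all 56 genes in both libraries, and Eef2 came next at 27375 and 14189. Eef1a2, its muscle and neuron paralogue, had 3 reads in Th17 against 17 (4.10-fold toward ILC3, 1.19 to 21.8) and, like Eif4e1b, stayed under 100. Eef1b2 and Eef1g are subunit genes of the exchange factor complex. They had 7503 and 9099 for Th17, with 4623 and 5302 for ILC3 (1.62-fold, 1.57 to 1.68, and 1.72-fold, 1.66 to 1.77). Eef1d, the gene of another subunit, had 2393 and 1700.0 (1.41-fold, 1.32 to 1.498). Relative to ribosomal proteins Eef1a1, Eef1b2 and Eef1d turned toward ILC3 (log2 ratios of -0.22, -0.013 and -0.22). Eef1e1, whose product belongs to the aminoacyl-tRNA synthetase complex, had 325 and 143 (2.27-fold, 1.87 to 2.77). For Eef1a1 and Eef1g, 87.6% and 72.0% of the longest transcript matched transcripts of other genes at 97% identity or more, so their reads may be split or lost in counting.

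eEF2 and its kinase showed the widest contrast. Eef2, the translocase gene, had 90993 and 47163 (1.93-fold, 1.91 to 1.95). Eef2k encodes the calcium-dependent kinase that phosphorylates eEF2 and thereby slows elongation. It had 84.7 normalized counts in Th17, from 72 reads, and 8457 in ILC3, from 9945 reads. That is 99.9-fold higher in ILC3 (79.2 to 128). The authors' deposited p-values rest on 1 library per group and are not given here. By level Eef2k ranked 375 of 17024 genes in ILC3 and 9665 in Th17. By ratio it ranked 138 from the most ILC3-high of the 10431 genes that reached 100, a level it reached only through the ILC3 library, and 54 among the 3902 genes at 1000 or more in ILC3. Per kb of exon Eef2k was at 0.0805 of Eef2 in ILC3 (0.0788 to 0.0822) and at 0.000417 in Th17 (0.000327 to 0.000526).

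None of the 5 measured neighbours of Eef2k described next, on chromosome 7 in GRCm38, was higher in ILC3 by a comparable fold. Polr3e, the nearest on one side, had 390.4 and 376 (1.04-fold, 0.898 to 1.20), and Cdr2 beyond it was higher in Th17 at 573 against 91.8 (6.24-fold, 5.05 to 7.75). Mettl9, farther on the same side, had 343 and 305 (1.125-fold, 0.960 to 1.32). On the other side Pdzd9 stood at 4.70 in Th17 with a listed 0 for ILC3, and Uqcrc2 had 2380.0 and 2407 (1.01-fold higher in ILC3, 0.955 to 1.07). An antisense gene overlaps 1.36% of the exon length of Eef2k, and without strand the reads of both cannot be told apart there. The stroma and endothelium markers (9 of 9) and the measured B and plasma cell markers (5 of 5) moved in the direction of Eef2k, with the sums given above, and their part in its level was not tested. A gene whose product acts on the kinase, chosen after the values were seen, did not differ to that degree. Prkaa1, a catalytic subunit gene of the AMP-activated kinase that activates eEF2K, was 1.44-fold higher in Th17 (1.32 to 1.58).

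Start regions were read for the 43 members with an entry among the RefSeq promoters of GRCm38.p6, each a window of 300 bases around an annotated start, most of it before the start. Eef1d, Eef1g, Eif1a, Eif2b3, Eif3e, Eif3h, Eif3i, Eif4e1b, Eif4e3, Eif4ebp1, Eif4ebp3, Eif4g2 and Eif6 had none. Many mRNAs of the translation machinery begin with a run of pyrimidines, the TOP element, through which mTORC1 and LARP1 govern their translation. A run of C followed by at least 7 letters C or T was searched on the coding strand in the 40 bases around the start, from 10 before to 30 after. It was present for 10 of 43 members (23.3%), for 28 of 64 ribosomal protein genes (43.8%), and for 13.9% of the 7926 genes with a promoter that reached 100 here. The median log2 ratio was 0.53 over the 10 members with the run and 0.45 over the 33 without. The following windows hold 20 bases before and 30 after the start, with the run in capitals. They are shown for 4 members that were all higher in Th17. Eef1a2, which also held a run, was higher in ILC3. A run near an annotated start was not shown to begin the mRNA. In the Eef1a1 window the TATA-like word tatataa follows the run, so that run may lie before the true start and outside the mRNA.
Eif2s3x (GRCm38.p6, chrX:94212622-94212671, minus strand): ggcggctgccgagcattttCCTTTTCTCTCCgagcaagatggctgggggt
Eif3f (GRCm38.p6, chr7:108934395-108934444, plus strand): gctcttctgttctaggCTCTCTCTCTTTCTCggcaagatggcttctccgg
Eif3l (GRCm38.p6, chr15:79075203-79075252, plus strand): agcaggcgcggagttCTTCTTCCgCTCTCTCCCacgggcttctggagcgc
Eef1a1 (GRCm38.p6, chr9:78481695-78481744, minus strand): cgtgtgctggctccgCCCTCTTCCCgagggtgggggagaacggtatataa

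The E-box CACGTG, a palindrome that reads the same on both strands and that MYC and related proteins bind, was searched in the whole 300 bases. It was found for 12 of 43 members (27.9%), against 11.99% of the 7926 genes that reached 100 and 8.09% of all 27025 genes with a promoter. A gene with several annotated starts had several chances. Other words were CCGGAAGT, bound by ETS factors (8 of 43 members, 9.89% of the 7926), and TGACGTCA, the cyclic AMP response element (1 of 43, Eef2, and 3.79% of the 7926), both searched on both strands. Of the members that held the E-box, Eef2k was the 1 higher in ILC3. Whether the E-box goes with direction was not tested. Members with it had a median log2 ratio of 0.60 and members without 0.46. A match is a stretch of letters and not a shown binding site. The windows show 40 bases around the E-box, in capitals, for the elongation pair and for 3 of the other members that hold it, Eif4e, Eif4g1 and the helicase helper Eif4h, to set side by side members that were higher in Th17 and the 1 that was higher in ILC3.
Eef2 (GRCm38.p6, chr10:81176571-81176610, plus strand): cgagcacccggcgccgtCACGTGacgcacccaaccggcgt
Eef2k (GRCm38.p6, chr7:120842783-120842822, plus strand): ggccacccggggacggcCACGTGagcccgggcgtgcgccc
Eif4e (GRCm38.p6, chr3:138527187-138527226, plus strand): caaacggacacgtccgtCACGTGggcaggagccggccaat
Eif4g1 (GRCm38.p6, chr16:20672656-20672695, plus strand): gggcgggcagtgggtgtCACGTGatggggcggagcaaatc
Eif4h (GRCm38.p6, chr5:134639483-134639522, minus strand): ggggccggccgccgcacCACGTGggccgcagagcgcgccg

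Other genes of the translation pathway gave a mixed picture. Among 18 genes of mTORC1 and MNK signalling 9 were higher in each library (median log2 ratio -0.01), with 3 at least 2-fold higher in Th17 and 2 in ILC3. Deptor, an inhibitor of mTOR, had 17.6 and 238 (13.5-fold toward ILC3, 8.05 to 24.4), and Sesn1, which restrains mTORC1 when amino acids are scarce, had 730.2 and 3033 (4.15-fold, 3.81 to 4.53). Other brakes on mTORC1 went the opposite way: Ddit4 had 2195 and 405 (5.42-fold, 4.90 to 6.01), and Sesn2 had 486 and 193 (2.52-fold, 2.13 to 2.97). Mtor itself had 1241 and 1286 (1.04-fold higher in ILC3, 0.957 to 1.122). The inhibitors named here were thus split between the libraries while the interval of the kinase gene held equal values.

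Of 9 genes of eIF2 kinases and the eIF2 phosphatase, 7 were higher in Th17 and 2 in ILC3 (median 0.24, under the constitutive families' 0.44). Eif2ak3, encoding the endoplasmic reticulum stress kinase PERK, had 2318 and 789 (2.94-fold, 2.71 to 3.18). Ppp1r15a, the stress-induced subunit that directs dephosphorylation of eIF2, had 6309 and 16706 (2.65-fold higher in ILC3, 2.57 to 2.73), whereas its constitutive relative Ppp1r15b had 7149 and 4648 (1.54-fold higher in Th17, 1.48 to 1.60). Eif2ak2, the kinase gene of double-stranded RNA sensing, had 1097 and 830.01 (1.32-fold higher in Th17, 1.21 to 1.45). The immediate early genes, higher in ILC3 for 10 of 10, moved in the direction of Ppp1r15a, and their part in it was not tested.

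All 6 genes of termination and recycling were higher in Th17 (median 0.69, just under the ribosomal proteins' 0.71), with Etf1, the release factor, at 5676 and 2707 (2.10-fold, 2.005 to 2.19) and the others from 1.16-fold for Pelo upward. Gspt2, at 16.5 and 5.10, did not reach 100. Of 11 poly(A)-binding and initiation helper genes 9 were higher in Th17 (median 0.29, also under 0.44). Pabpc1, the poly(A)-binding protein that meets eIF4G, had 42847 and 24144 (1.77-fold, 1.75 to 1.80), and Ddx3x, a helicase, had 27014 and 39502 (1.46-fold higher in ILC3, 1.44 to 1.49). Of 9 enzyme genes that modify the factors, 4 were higher in Th17 and 5 in ILC3. Dhps and Dohh, which make hypusine on eIF5A, exceeded their ILC3 level by 2.16-fold (1.78 to 2.62) for Dhps and by 1.40-fold (1.23 to 1.59) for Dohh, while 5 of 7 genes for diphthamide, a modification of eEF2, were higher in ILC3, the largest being Dph6 (1.71-fold, 1.42 to 2.07). Dph7 (1.35-fold, 1.14 to 1.60) and Dph2 (1.123-fold, 0.873 to 1.44) were the diphthamide genes higher in Th17. Mitochondrial translation factors had no common direction, with 4 of 10 higher in Th17 and 6 in ILC3 (median -0.17) and Mtrf1l as the 1 with at least 2-fold (154 and 56.1, 2.74-fold higher in Th17, 2.03 to 3.75).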

How the data were processed

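RNA of 2 libraries, 1 of Th17 cells and 1 of ILC3s, was sequenced after TRIzol extraction and TruSeq library preparation, per the labels' protocols; groups follow the sample titles. The submitters' processing notes name DESeq 1.12.0, HTSeq 0.5.4p3, TopHat2 2.0.6 and build mm8. Settings, and whether strand was used, are not given there. The authors deposited 1 signal value per gene and library, a count divided by a size factor. The authors also deposited a ratio (fold change), which equalled Th17 over ILC3 within a relative 1e-06 in 17048 of 17048 rows, and a p-value and adjusted p-value per gene without replicates.

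The lowest value above 0 is worth 1 read (1.18 in Th17, 0.850 in ILC3), and values were divided by it; 100% of values came out whole within 0.001 reads. A count model needs replicates, so none was fitted. The exact interval of the ratio from these reads excluded equal values in Th17's favour for 4966 (47.6%) and in ILC3's for 3984 (38.2%) of 10431 genes at 100 or more. PCR reads are not independent molecules, so intervals cover counting error only. Left out were 24 rows whose names had become dates (0.251% and 0.297% of the Th17 and ILC3 values). A gene at 0 allows up to 3 reads, which is 3.53 normalized counts in Th17 and 2.55 in ILC3.

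Ratios were log2((Th17 + 1)/(ILC3 + 1)); folds are without the pseudocount. Exon lengths are unions of GENCODE M21 exons (56 of 56 genes found), and similar transcripts were sought with blastn 2.17.0 at 97% identity. This annotation is of another build than the authors', so levels per kb are approximate. The union of exons can also be much longer than a single transcript. Levels per kb, and their ratios between genes within a library, therefore depend on the length used, which the intervals do not cover. In a simulated pair of libraries (17024 genes, 200 of them altered 8-fold) the 4-fold rule found 100% and took 0 others. There 96.1% of unchanged genes had the true ratio in their interval. The altered genes had a mean of at least 200, and counts were drawn with sampling error alone. The simulation therefore checks the calculation and cannot speak of variation between animals or libraries.

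Members and gene lists were chosen with earlier results of these data known. Named were a fixed set of central factors, members past 4-fold and, by role, the most abundant and most different members; of other lists, up to 4 genes with the largest ratios. Chosen after the values were seen were Mtor, Gspt2, Pelo, Dohh, Dph2, Dph7 and members outside that rule. So were the promoter motifs, the partner ratios, the neighbours of Eef2k and the kinase and phosphatase genes set beside it. Versions were scipy 1.17.1 for intervals, pandas 2.3.3 and numpy 2.4.6 under Python 3.11.15 for tables, and matplotlib 3.10.9 for plots.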

Additional observations from a re-analysis of the deposited data

How the results depend on the processing

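No paired analysis was possible because each group has 1 library, and for the same reason no library could be left out. Depth limits Eif4e1b and Eef1a2, with 3 reads each in Th17. The recomputed median of ratios and pseudocounts of 0.1 and 10 kept the values of all 56 members within their counting intervals. Compared with the authors' scaling, the median of all genes at a mean of at least 10 was 0.02 and became -0.09 with total reads, 0.13 with the upper quartile, -0.43 centred on constitutive families and -0.70 centred on ribosomal proteins.

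The members' median log2 ratio (0.50) was 0.39 with total reads, 0.39 centred on all genes at 100 or more, 0.62 with the upper quartile, 0.057 centred on constitutive families and -0.21 centred on ribosomal proteins. The 10 members at 2-fold in Th17 became 5 with total reads, 5 centred on all genes at 100 or more, 1 (Eif5a2) centred on constitutive families, 0 centred on ribosomal proteins, 6 at a minimum of 1000 normalized counts and 23 at 1.5-fold. The 1 in ILC3 became 3 centred on constitutive families (with Eif2b3 and Eif4g3), 4 on ribosomal proteins (with Eif4a2), 3 at a minimum of 10, 3 with no minimum, 3 at 1.5-fold and 0 without Eef2k, an alternative added after seeing the data. Centred on constitutive families, the medians of the eIF4E group (-0.079) and of the eIF4A, eIF4B, eIF4H and eIF4G group (-0.042) turned negative. Centred on ribosomal proteins these were -0.35 and -0.31, and those of eIF1 and eIF1A (-0.26), eIF2B (-0.26), eIF3 (-0.18), eIF5, eIF5B and eIF6 (-0.18) and eEF1 (-0.013) turned too. Without the 144 genes that are among the 100 most abundant of either library (4 of them members), the share of reads was 1.15% in Th17 and 1.06% in ILC3. Leaving out the 18 members that share at least 10% of their transcript with other genes, also added later, gave 9, 1 and a median of 0.53. No Argonaute gene under an older Eif2c symbol is among the members, so that alternative had nothing to leave out.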
